A study of Rattus norvegicus with 115 samples.

Results

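The collagen genes were taken by name alone, as every gene whose symbol in the array annotation is Col, a number, the letter a and a number. Of 20826 probe sets with 1 gene symbol, which stand for 14217 genes, 58 carried such a symbol, and they gave 41 collagen genes. A probe set is a group of short oligonucleotides that measures 1 transcript. Each gene is represented by its brightest probe set on average over all arrays, and 14 of the 41 had more than 1. The genes were grouped into 11 fibrillar collagens, 7 basement membrane collagens (type IV and the related types XV and XVIII) and 23 of other types. The rule itself used names and brightness and no measured difference, but it was set with earlier results of these data known. Col28a1, Col4a3 and Col6a4 were not analysed here.

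The samples are brain tissue of Fisher rats that carried a tumour grown from 9L cells, a rat gliosarcoma line that the labels call glioblastoma, after 100000 cells had been placed in the right caudate nucleus. At 10 days the rats were left untreated, received microbeam radiation therapy (MRT, an array of thin synchrotron beams with 400 Gy in the beams and 18 Gy in the valleys between them) or received a uniform broad beam (BB, 17.4 Gy). Tumour and contralateral hemisphere were taken 6 h, 48 h, 8 d and 15 d later and measured on Affymetrix rat arrays, 115 in all from 60 rats, and 55 rats gave both tissues. The comparison asks how tumour and normal brain respond to spatially fractionated against uniform dose.

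In order of time, the untreated groups held 5, 4 and 4 tumours, the MRT groups 9, 8, 7 and 4, and the BB groups 6, 4, 4 and 4. For contralateral brain the untreated groups held 5, 4 and 4 samples, the MRT groups 9, 7, 6 and 4, and the BB groups 6, 3, 4 and 4. An untreated group of 15 d was not analysed here. All rats, the untreated ones included, carried a tumour, all tumours came from 1 cell line, and the rats' age is not given in the sources used here. All 35 BB arrays carry a label set of their own, whose values were made with RMA alone per the submitters' notes, so the broad beam and that processing cannot be told apart.

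Collagens are secreted or membrane proteins whose chains wind into helices. Fibrillar collagens (types I, II, III, V, XI and others) build the fibrils of connective tissue, type IV builds the sheet under epithelia and around vessels, and the remaining types link fibrils, form fine networks or sit in cell membranes. In healthy brain most collagen lies in the meninges and vessel walls, while tumours with mesenchymal features, such as gliosarcoma, contain fibrillar collagen between their cells.

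For 32 of the 41 genes RefSeq gave a promoter window in the rat build GRCr8, with 3 windows for Col24a1 and 2 for Col6a5. The 250 bases before the transcription start were searched on both strands for 3 short runs of letters that general promoter factors are known to read, and 0 matches of different motifs overlapped. The run CCAAT reads as ATTGG when it lies on the opposite strand. The run GGGCGG reads there as CCGCCC, and the run TATAAA reads there as TTTATA. Of the 32 genes 9 held CCAAT in any of their windows, 28.1%, against 36.1% of the 27457 genes in the table. GGGCGG was found in 18, 56.2%, against 33.5% of all genes, and TATAAA in 4, 12.5%, against 14.1%. Among the 20 of these genes that were lower after MRT at 8 d, 13 held GGGCGG (65.0%), and among the other 12 genes 5 did (41.7%). These matches describe letters and not binding. The windows shown are the promoter shared by the main basement membrane pair, and those of a fibrillar collagen, of the basement membrane collagen of largest change after MRT and of a pair of other collagens of large change. Each runs 5′ to 3′, with motif letters in capitals.
Col4a1-Col4a2: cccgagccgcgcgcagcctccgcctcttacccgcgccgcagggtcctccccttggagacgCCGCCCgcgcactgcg
Col1a2: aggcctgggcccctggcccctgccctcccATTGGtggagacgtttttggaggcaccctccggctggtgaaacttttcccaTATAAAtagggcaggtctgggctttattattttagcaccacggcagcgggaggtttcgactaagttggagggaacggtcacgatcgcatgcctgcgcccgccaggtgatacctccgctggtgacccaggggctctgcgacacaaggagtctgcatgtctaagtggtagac
Col18a1: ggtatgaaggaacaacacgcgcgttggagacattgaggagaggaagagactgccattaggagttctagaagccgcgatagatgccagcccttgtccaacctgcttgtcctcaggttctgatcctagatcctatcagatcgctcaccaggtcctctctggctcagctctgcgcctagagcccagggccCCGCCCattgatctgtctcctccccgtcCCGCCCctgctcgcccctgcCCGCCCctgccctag
Col6a1: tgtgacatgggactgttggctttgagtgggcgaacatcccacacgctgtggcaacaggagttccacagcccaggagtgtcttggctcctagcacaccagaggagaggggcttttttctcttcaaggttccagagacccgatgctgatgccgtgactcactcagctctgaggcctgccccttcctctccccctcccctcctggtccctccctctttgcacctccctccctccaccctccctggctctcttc
Col8a2: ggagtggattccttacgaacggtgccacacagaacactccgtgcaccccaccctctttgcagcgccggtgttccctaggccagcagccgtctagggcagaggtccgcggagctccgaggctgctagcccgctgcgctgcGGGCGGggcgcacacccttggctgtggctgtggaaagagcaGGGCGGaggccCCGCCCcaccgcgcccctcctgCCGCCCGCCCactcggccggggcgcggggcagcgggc

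The Col4a1-Col4a2 stretch, chr16:84885521-84885596 on the plus strand, is the whole of what lies between the starts of a gene pair that points in opposite directions. The starts are 77 bases apart and the interval is 78.9% G and C, with 1 CCGCCC. The Col1a2 window, chr4:33518307-33518556 on the plus strand, holds ATTGG and TATAAA. The Col18a1 window, chr20:11473395-11473644 on the plus strand, holds CCGCCC at 3 places. The Col8a2 window, chr5:143870519-143870768 on the plus strand, holds GGGCGG or its complement several times, partly run together. This window ends past the annotated start of the gene, at 143870754, so it lies before a start further into the gene. The Col6a1 window, chr20:11905440-11905689 on the plus strand, holds none of the motifs searched. Col18a1 and Col8a2 hold the same motif, Col1a2 holds others and Col6a1 holds none, and these 4 genes were lower in tumours 8 d after MRT.

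The deposited values are normalized intensities whose array medians ran from 117 to 165, and levels are given below as log2 of intensity. Of the 41 collagen genes, 3 lay above the array's median gene on all 59 tumour arrays and 19 on none, and 18 belong to the dimmest 30% of all genes. The tissue labels were checked against markers. In untreated tumours 16 of 16 mitosis genes were higher and 19 of 19 neuron genes lower than in contralateral brain, but neuron transcripts were measurable in tumours, with a list mean of 10.49 ± 0.42 (SD, n = 5) at 6 h against 11.79 ± 0.12 (n = 5) in brain. Some arrays stood apart from their group. Among contralateral arrays, untreated rat 18 at 48 h, untreated rat 30 and BB rat 57 at 8 d, and BB rats 59 and 60 at 15 d had the highest mitosis means of their groups, at 6.69, 7.40, 7.36, 7.55 and 8.37, together with high tumour collagens. Among tumours, MRT rat 6 and BB rat 47 at 6 h, MRT rats 37 and 38 at 8 d and MRT rat 42 at 15 d had low collagen levels.

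In untreated rats the collagens differed between tumour and brain in both directions. A gene was called where limma's moderated test, adjusted by Benjamini-Hochberg over all 14217 genes, gave an adjusted p under 0.05. By that rule 37 of the 41 differed, 23 higher and 14 lower in tumour, where 81.1% of all genes differed, 40.5% higher and 40.6% lower. The collagens' median difference was 0.97 on the log2 scale, against -0.03 over all genes. These are bulk samples, in which fewer cells of a type and less RNA per cell cannot be told apart.

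The widest gaps between tumour and brain were in the fibril formers and in types VI and XVIII. Col18a1, whose C-terminal piece is endostatin, was higher in tumour by 5.32 ± 0.29 (log2 ± SE, limma adjusted p = 5.8e-31), or 39.8-fold. Col6a3, a chain of the beaded type VI filament, was higher by 5.23 ± 0.30 (adjusted p = 3.5e-30), and Col5a2, a chain of the type V collagen that seeds fibrils, by 5.01 ± 0.24 (adjusted p = 1.1e-34). The type III chain Col3a1 was 26.0-fold and the type I chain Col1a1 18.9-fold higher, and Col1a2, Col5a1, Col6a1 and Col6a2 were between 14.0-fold and 16.6-fold higher. Rises were smaller for Col7a1 (2.60 ± 0.18), which forms anchoring fibrils, Col8a1 (3.12 ± 0.24), a network collagen of vessel walls, and Col16a1 (1.89 ± 0.13), a fibril-associated collagen. Of the main chains of vascular basement membrane, Col4a1 was higher by 2.11 ± 0.17 and Col4a2 by 0.97 ± 0.14.

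The collagens that were lower in tumour included members known from neurons and from cartilage. Col25a1, a membrane collagen of neurons, differed by -1.90 ± 0.34, and Col19a1, a fibril-associated collagen made by neurons, by -1.83 ± 0.24. The type IX chains Col9a3 and Col9a1, which decorate cartilage fibrils, differed by -0.97 ± 0.25 and -0.90 ± 0.12, and the type XI chain Col11a2 by -0.88 ± 0.12. Col11a1, Col13a1, Col26a1 and Col4a5 were not called, with differences from -0.22 to -0.12. The neuron markers in the same samples had a median difference of -1.90, and their part in the collagen values was not tested.

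Genes that make, bind and break down collagen were also called between untreated tumour and brain, where 81.1% of all genes were. Among all genes 40.5% were higher and 40.6% lower in tumour. Of 25 genes of collagen synthesis and crosslinking 20 were higher and 4 lower, among them Pcolce, an enhancer of procollagen processing, at 5.01 ± 0.26, and P4hb, a subunit of prolyl hydroxylase, at 2.10 ± 0.11. Of 16 basement membrane partners 11 were higher and 4 lower, and of 21 interstitial matrix partners 16 were higher and 3 lower, with Fn1 (fibronectin) at 3.58 ± 0.18. The list of 16 genes of collagen degradation, here and below, holds the inhibitors Timp1, Timp2, Timp3 and Timp4 beside proteases, so its counts mix both. Of these 16 genes 10 were higher and 3 lower, with Timp1, an inhibitor of collagenases, at 4.97 ± 0.22. Of 7 collagen receptors 3 were higher and 4 lower, with the integrin chain Itgb1 at 2.55 ± 0.13.

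Between 6 h and 8 d without treatment, 11 collagens changed in tumours, 6 higher and 5 lower, or 26.8% of the 41, where 29.2% of all genes changed, 16% higher and 13.2% lower. Their median difference was 0.34, against 0.11 over all genes. Col14a1, which binds to fibril surfaces, rose by 2.29 ± 0.42 (limma adjusted p = 0.00022), Col6a6 by 1.87 ± 0.46 and Col7a1 by 1.43 ± 0.36, and Col12a1, Col26a1 and Col16a1 rose by 0.67 ± 0.15, 0.73 ± 0.20 and 0.84 ± 0.28. Col25a1 fell by 2.79 ± 0.69, Col9a3 by 1.76 ± 0.57, Col19a1 by 1.42 ± 0.52, Col11a2 by 0.98 ± 0.24 and Col9a1 by 0.68 ± 0.23. The main fibril chains were not called: Col1a1 was at 11.91 ± 0.41 (SD, n = 5) at 6 h and 12.12 ± 0.10 (n = 4) at 8 d. Over the same interval the mean of the neuron markers went from 10.49 to 8.56, with 18 of 19 lower, and 8 of 8 oligodendrocyte and 7 of 9 astrocyte markers were lower. T cell markers were higher in 6 of 10, macrophage markers in 4 of 11, pericyte markers in 3 of 12, and fibroblast and meningeal markers in 3 of 13 with 1 lower, and the part of these markers was not tested. With the neuron mean as a covariate 0 of the 41 were called in this comparison, and without untreated rat 27 of 8 d 6 were, while with only the groups compared in the fit 18 were.

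MRT had no called collagen in tumours at 6 h, where 1.42% of all genes were called, and 1 of the 41 had an unadjusted p under 0.05. The differences of largest statistic were Col15a1 (-0.60 ± 0.26, limma adjusted p = 0.40), Col8a1 (-0.79 ± 0.40) and Col23a1 (-0.54 ± 0.28). The collagens' median difference was -0.21, against -0.01 over all genes. Col1a1 ran from 11.31 to 12.32 in the 5 untreated tumours, and from 9.33 to 12.19 with a median of 11.18 in the 9 MRT tumours. The MRT group reached lower, down to rat 6 at 9.33, and overlapped the untreated group.

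At 48 h after MRT 1 collagen was called in tumours, where 2.35% of all genes were. Col11a2, a chain of the thin type XI fibrils, stood at 6.94, 7.24, 7.55 and 7.89 in untreated tumours and between 6.15 and 6.69, with a median of 6.38, in 8 MRT tumours. The groups did not overlap, and the difference was -1.02 ± 0.22 (limma adjusted p = 0.0043). Without untreated rat 17, the highest of its group, the adjusted p was 0.0551. Macrophage markers were higher in 8 of 11 in this comparison, T cell markers higher in 1 of 10 and pericyte markers lower in 1 of 12, and their part was not tested. The tumour levels of the type I, III and VI chains overlapped those of untreated tumours at this time, with Col3a1 between 12.52 and 13.83 after MRT and between 13.25 and 14.18 without.

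**Figure D1:**
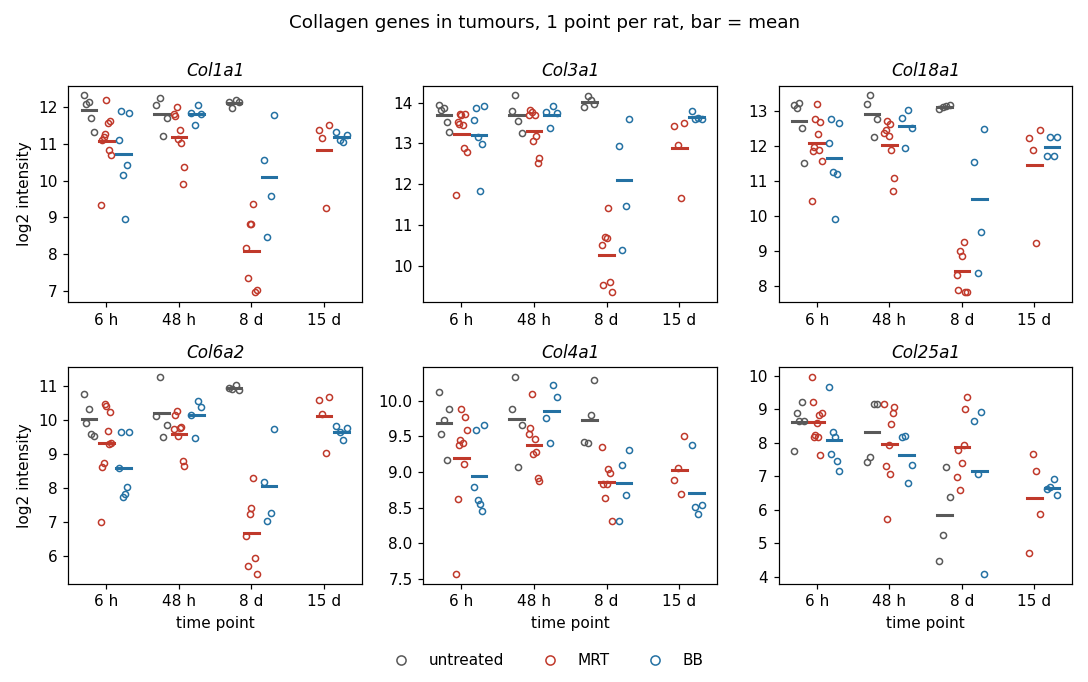
Log2 intensity of 6 collagen genes in tumours, by treatment and time; each point is the tumour of 1 rat and the bar is the group mean. Col1a1, Col3a1, Col18a1 and Col6a2 drop in MRT tumours at 8 d below every untreated tumour of that time. Their group means lie higher again at 15 d, though for Col1a1 and Col18a1 the 8 d and 15 d MRT tumours overlap. Col4a1 moves less, and Col25a1 is higher in some MRT tumours at 8 d.

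At 8 d after MRT most of the abundant tumour collagens were lower. Of the 41, 28 differed from untreated tumours, 25 lower and 3 higher, where 47.8% of all genes differed, 26.1% lower and 21.8% higher. The median of the 41 was -1.26, against -0.04 over all genes. By class, 7 of 11 fibrillar collagens were lower, 5 of 7 basement membrane collagens, and 13 of 23 other collagens with 3 of these 23 higher. The named members of largest statistic kept their call under every alternative tried.

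Among the fibrillar collagens, Col3a1 stood at 13.89, 13.96, 14.07 and 14.17 in untreated tumours and between 9.35 and 11.41, with a median of 10.51, in the 7 MRT tumours. Every MRT tumour lay below every untreated one, and the difference was -3.77 ± 0.41 (limma adjusted p = 7.2e-10), a 13.6-fold lower intensity. Col1a1 stood at 11.98, 12.15, 12.15 and 12.21 untreated and between 6.95 and 9.35, median 8.17, after MRT. The groups were apart by more than 2 log2 units, and the fitted difference was -4.05 ± 0.49 (adjusted p = 1.1e-08). Its partner in type I collagen, Col1a2, went from 13.43 ± 0.03 (SD, n = 4) to 10.37 ± 1.11 (n = 7), a difference of -3.06 ± 0.43 (adjusted p = 1.4e-07). The 2 lowest Col1a1 values after MRT were those of rats 37 and 38, at 6.95 and 7.02.

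The type V chains, which set fibril width, were lower too, with Col5a1 at -3.09 ± 0.48, Col5a2 at -2.62 ± 0.37 and Col5a3 at -1.47 ± 0.23. Col5a2 lay between 13.43 and 13.53 in untreated tumours and between 9.12 and 12.18 after MRT. Its spread after MRT (SD 1.23, n = 7) was thus much wider than in the separate untreated rats. Col27a1, a minor fibrillar collagen, differed by -1.28 ± 0.25. The cartilage collagens Col2a1 (-0.04 ± 0.11), Col11a1 (-0.38 ± 0.29) and Col11a2 (0.10 ± 0.22) and the minor collagen Col24a1 (0.25 ± 0.20) were not called.

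Among the basement membrane collagens, Col18a1 was 13.06, 13.11, 13.14 and 13.17 in untreated tumours. After MRT it was 7.83, 7.83, 7.89, 8.33, 8.87, 9.00 and 9.26. The groups were apart by almost 4 log2 units, and the difference was -4.69 ± 0.54 (limma adjusted p = 3.2e-09), or 25.8-fold lower. The type IV network moved less: Col4a2 differed by -1.27 ± 0.25 and Col4a1 by -0.87 ± 0.30. Col4a1 was 9.40, 9.42, 9.79 and 10.30 untreated and between 8.31 and 9.34 after MRT, so its groups lay side by side without overlap. Col15a1, a multiplexin of vessel walls, differed by -1.26 ± 0.30 and Col4a6 by -0.36 ± 0.12, while Col4a5 (0.04 ± 0.20) and Col4a4 (-0.19 ± 0.15) were not called.

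**Figure D2:**
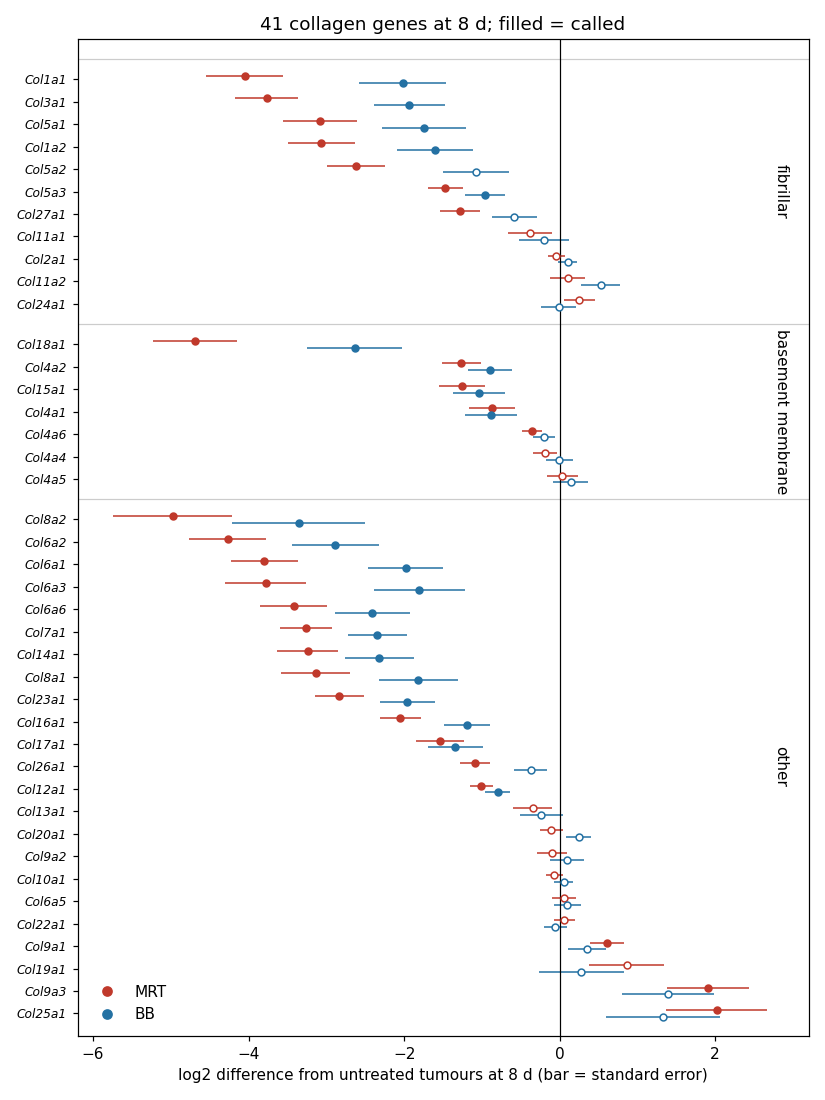
Difference from untreated tumours at 8 d on the log2 scale, with its standard error, for the 41 collagen genes after MRT (7 tumours) and after BB (4 tumours), both against the same 4 untreated tumours; filled points were called. After MRT 25 genes lie below 0 and are called and 3 lie above and are called; after BB 21 are called, all below 0.

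Among the other collagens, most chains of the type VI filament were lower. Col6a2 was 10.86, 10.89, 10.92 and 11.03 in untreated tumours and 5.46, 5.70, 5.93, 6.58, 7.24, 7.41 and 8.28 after MRT. No tumours of the groups overlapped, and the difference was -4.27 ± 0.50 (limma adjusted p = 4.2e-09). Col6a1 differed by -3.80 ± 0.43, Col6a3 by -3.78 ± 0.52 and Col6a6, an alternative to the Col6a3 chain, by -3.42 ± 0.43. Col6a5, the other such chain, was not called, with a difference of 0.05 ± 0.15.

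The widest difference of all 41 was that of Col8a2, which forms networks with Col8a1 and lines vessels and the cornea. It was 10.29, 10.57, 10.68 and 11.17 untreated and averaged 5.70 ± 0.89 (SD, n = 7) after MRT, a difference of -4.98 ± 0.76, or 31.5-fold lower. Col8a1 differed by -3.14 ± 0.45. Col7a1, of the anchoring fibrils, differed by -3.26 ± 0.34 (limma adjusted p = 2.3e-10), the membrane collagen Col23a1 by -2.83 ± 0.31, and the fibril-associated collagens Col14a1, Col16a1 and Col12a1 by -3.24 ± 0.39, -2.05 ± 0.26 and -1.01 ± 0.14. Col17a1, a membrane collagen of epithelial anchorage, differed by -1.54 ± 0.31 and Col26a1 by -1.08 ± 0.19, with overlapping groups for Col26a1.

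The 3 collagens that were higher 8 d after MRT were Col25a1, Col9a3 and Col9a1. Col25a1 was 4.46, 5.25, 6.38 and 7.29 in untreated tumours and averaged 7.86 ± 1.02 (SD, n = 7) after MRT, a difference of 2.02 ± 0.65. Col9a3 differed by 1.91 ± 0.53 and Col9a1 by 0.61 ± 0.22. In each of the 3 the groups overlapped. The same tumours had higher neuron markers (13 of 19, mean 9.84 against 8.56) and oligodendrocyte markers (8 of 8, mean 11.17 against 9.32), and the part of these cells in the values was not tested.

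Cell markers were called in both directions at 8 d after MRT, where 26.1% of all genes were lower and 21.8% higher. Mitosis genes were lower in 16 of 16, with a list mean of 8.86 ± 0.84 (SD, n = 7) after MRT, range 7.63 to 9.70, against 10.41 ± 0.11 (n = 4) untreated, range 10.30 to 10.55. Macrophage markers were higher in 11 of 11 and T cell markers in 10 of 10, and astrocyte markers were higher in 6 and lower in 1 of 9. Fibroblast and meningeal markers were lower in 7 and higher in 2 of 13, with a mean of 7.38 ± 0.31 against 8.91 ± 0.10, pericyte and smooth muscle markers lower in 5 and higher in 1 of 12, and endothelial markers lower in 3 and higher in 2 of 13. Choroid plexus markers were lower in 1 of 9. Their part in the collagen values was not tested. With the neuron mean as a covariate 25 of the 41 collagens were called, and without rats 37 and 38, whose neuron means were 10.75 and 10.89, 26 were.

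**Figure D3:**
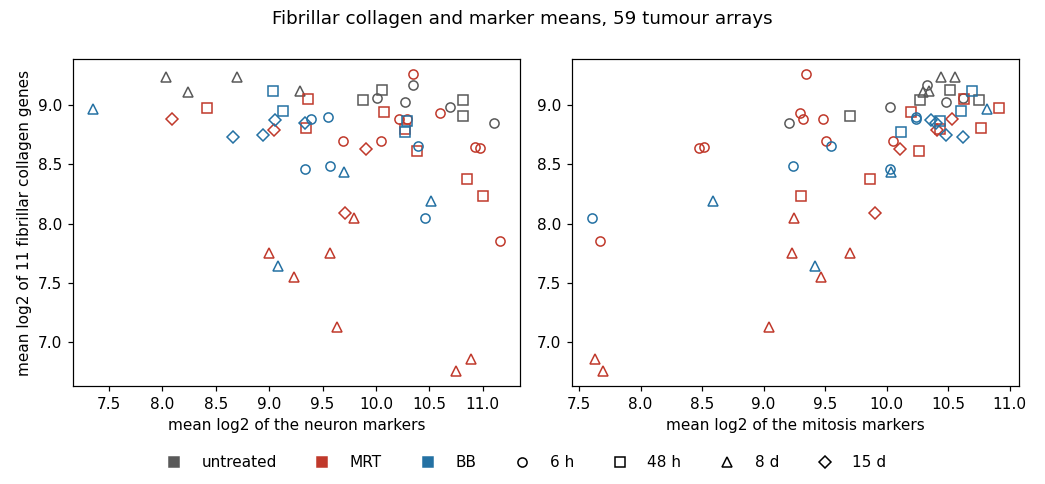
Mean log2 intensity of the 11 fibrillar collagens against the mean of the neuron markers and against the mean of the mitosis markers, 1 point for each of the 59 tumour arrays. MRT tumours at 8 d lie at 6.76 to 8.05 in fibrillar collagens, a range that also holds BB rat 55 of 8 d at 7.64 and MRT rat 6 of 6 h at 7.85, and the untreated tumours of 8 d lie at 9.11 to 9.24.

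Genes of collagen synthesis and of the surrounding matrix were mostly lower at 8 d after MRT, while genes of degradation and receptors went both ways. Of 25 genes of synthesis and crosslinking 19 were lower and 1 higher, with a median of -2.02. They included Loxl1 (-2.27 ± 0.26), which starts crosslinks, Pxdn (-3.42 ± 0.47), which crosslinks type IV collagen, and the prolyl hydroxylase P3h3 (-2.26 ± 0.31). Of 16 basement membrane partners 12 were lower and 0 higher, median -1.37, led by the laminin chain Lama1 (-1.81 ± 0.18) and the nidogen Nid1 (-3.27 ± 0.40), which ties laminin to type IV collagen. Of 21 interstitial partners 16 were lower and 2 higher, median -1.76, led by the microfibril genes Mfap2 (-4.38 ± 0.42) and Mfap4 (-4.07 ± 0.40). Degradation genes, the Timp inhibitors among them, were lower in 5 and higher in 6 of 16, median -0.11. Mmp2, a gelatinase, was at -2.73 ± 0.39 and the cathepsin Ctsb at 0.65 ± 0.15. Of 7 receptors 2 were lower and 2 higher, median 0.26, with the fibrillar collagen receptor Ddr2 at -1.92 ± 0.34 and its relative Ddr1 at 0.80 ± 0.30.

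The MRT difference itself changed between 48 h and 8 d. The test of that change called 24 collagens, 22 more negative and 2 more positive at 8 d, where 30.1% of all genes were called, 18.9% more negative and 11.2% more positive. Those of largest statistic were Col7a1 (-3.15 ± 0.47, limma adjusted p = 1.6e-05), Col3a1 (-3.38 ± 0.57), Col6a1 (-3.49 ± 0.60) and Col14a1 (-2.97 ± 0.55), and Col8a2 had the largest size, at -3.96 ± 1.06. The positive ones were Col11a2, at 1.12 ± 0.31, and Col25a1, at 2.38 ± 0.90. In the same test mitosis markers were more negative in 11 of 16 and fibroblast and meningeal markers in 7 of 13 with 2 more positive, and neuron markers were more positive in 12 of 19, and their part in the collagen values was not tested.

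**Figure D4:**
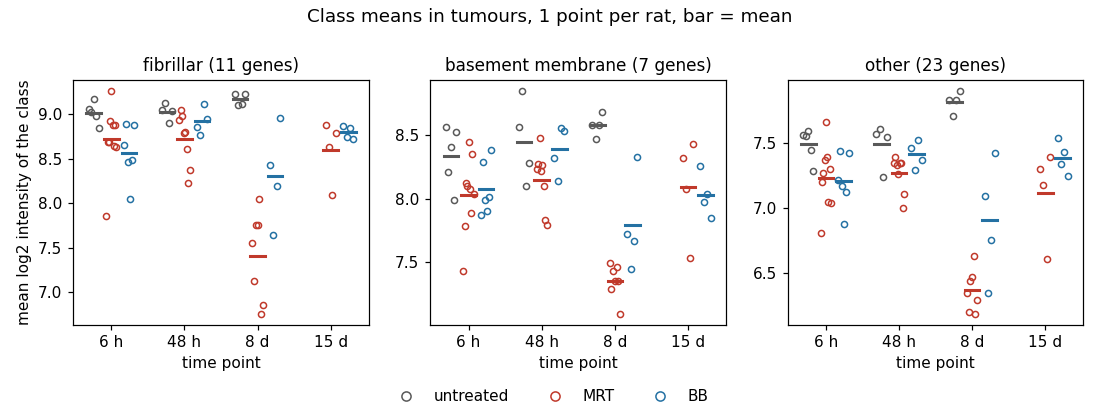
Mean log2 intensity of the 11 fibrillar, 7 basement membrane and 23 other collagens in each tumour, by treatment and time, with the group mean as a bar. The 8 d MRT group has the lowest mean in each of the 3 classes, at 7.41, 7.35 and 6.36 against 9.17, 8.58 and 7.82 untreated, and the 8 d BB tumours spread widely between them.

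After BB few collagens were called early in tumours in the main fit. At 6 h 3 collagens were called, where 17.4% of all genes were: Col4a6 at 0.38 ± 0.12, Col6a2 at -1.45 ± 0.48 and Col15a1 at -0.83 ± 0.29. At 48 h 2 were called, where 2.6% of all genes were: Col4a6 at -0.51 ± 0.14 and Col11a2 at -0.88 ± 0.25. Col4a6 was thus higher at 6 h and lower at 48 h in separate rats. None of these 5 early calls held under every alternative tried. At 6 h the count was 1 without untreated rat 1 and 0 without untreated rat 3, and at 48 h leaving out any of the 8 rats left 0 or 1. With the neuron mean as a covariate the 6 h count was 18, and in the main fit 13 of the 41 had an unadjusted p under 0.05 in limma's test. At 6 h mitosis markers were lower in 5 of 16, endothelial markers in 2 of 13 and neuron markers in 2 of 19, and at 48 h macrophage markers were higher in 6 of 11; their part in the collagen values was not tested.

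At 8 d after BB 21 collagens were lower and 0 higher, where 22.9% of all genes were called, 14.5% lower and 8.36% higher. Their median was -0.88, against -0.02 over all genes, and the lower ones were 5 of 11 fibrillar, 4 of 7 basement membrane and 12 of 23 other collagens. The MRT and BB comparisons at 8 d share the same 4 untreated tumours, so their values are set side by side only. Col7a1 differed by -2.34 ± 0.38 (limma adjusted p = 3.7e-05; MRT -3.26), Col6a2 by -2.89 ± 0.56 (MRT -4.27), Col18a1 by -2.64 ± 0.61 (MRT -4.69) and Col3a1 by -1.93 ± 0.46 (MRT -3.77). Col23a1, Col14a1 and Col6a6 differed by -1.96 ± 0.35, -2.32 ± 0.44 and -2.41 ± 0.49. Col4a1 differed by -0.88 ± 0.33 (adjusted p = 0.048; MRT -0.87), and Col5a2, at -1.08 ± 0.42, had an adjusted p of 0.056. Col1a1, at -2.02 ± 0.56, was called as well.

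The 4 BB tumours at 8 d were unlike each other. Col18a1 was 11.55, 8.38, 9.53 and 12.47 in rats 54, 55, 56 and 57, against 13.06 to 13.17 in untreated tumours. Col6a2 was 8.15, 7.03, 7.26 and 9.71 in the same order, and Col3a1 was 12.94, 10.38, 11.47 and 13.59. For these 3 genes all BB tumours lay below all untreated ones, with rat 55 near the MRT tumours and rat 57 near the untreated. For Col8a2, at 8.46, 4.95, 5.55 and 10.32, rat 57 reached the untreated range. Without rat 55 12 of the 41 were called in place of 21, and mitosis and neuron means also ran widely in these tumours, from 8.59 to 10.82 and from 7.35 to 10.52. With only the groups compared in the fit, 11 were called.

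Gene lists around collagen at 8 d after BB were lower in part. Of the synthesis and crosslinking genes 14 of 25 were lower and 0 higher (median -1.31), of the basement membrane partners 7 of 16 (median -0.72), of the interstitial partners 12 of 21 with 1 higher (median -1.21), of the degradation genes 4 of 16 with 1 higher, and of the receptors 2 of 7. Loxl1 differed by -1.73 ± 0.29, Nid1 by -2.18 ± 0.46 and Mfap4 by -3.71 ± 0.45. Of the marker lists, 7 of 13 fibroblast and meningeal genes were lower and 2 higher, 5 of 12 pericyte and 2 of 13 endothelial genes were lower, and 0 of 16 mitosis genes were called. Macrophage genes were higher in 4 of 11, astrocyte in 3 of 9, neuron in 2 of 19, oligodendrocyte in 2 of 8, T cell in 1 of 10 and choroid plexus in 0 of 9. Their part in the collagen values was not tested.

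MRT and BB tumours were also compared directly. At 6 h 3 collagens were lower after MRT, or 7.32% of the 41, a share below the 15.7% of all genes that were called. They were the type IV chains Col4a5 (-0.59 ± 0.17), Col4a6 (-0.33 ± 0.10) and Col4a4 (-0.36 ± 0.13), and each lost its call under some alternative. At 48 h limma called 0 of the 41 and 0 of all genes (0%), with 1 collagen at an unadjusted p under 0.05. At 8 d 7 were lower after MRT and 0 higher, where 1.27% of all genes were called, 0.281% lower and 0.985% higher. These were Col3a1 (-1.84 ± 0.41, limma adjusted p = 0.017), Col6a1 (-1.82 ± 0.43), Col5a2 (-1.54 ± 0.37), Col1a1 (-2.03 ± 0.49), Col18a1 (-2.06 ± 0.54), Col6a3 (-1.97 ± 0.52) and Col26a1 (-0.71 ± 0.19). In all 7 the groups overlapped. T cell markers were higher after MRT in 5 of 10 (median 1.64), macrophage markers in 2 of 11 (median 1.04), fibroblast and meningeal markers higher in 1 and lower in 1 of 13 and astrocyte markers lower in 1 of 9, while the other marker lists had 0 called; their part in the collagen values was not tested. The count was 0 without BB rat 54 or rat 57, 1 without BB rat 56, 16 without BB rat 55 and 1 without MRT rats 37 and 38. With only these groups in the fit it was 0.

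Between 8 d and 15 d after MRT the collagens rose again in tumours. Of the 41, 22 were higher and 1 lower at 15 d, where 27.9% of all genes were called, 16.1% higher and 11.8% lower. The median was 0.70, against 0.03 over all genes, and the higher ones were 8 of 11 fibrillar, 4 of 7 basement membrane and 10 of 23 other collagens. Both sides are MRT tumours, and the other tumour groups enter only the estimate of the spread. The 7 tumours of 8 d enter this comparison and the one with untreated rats.

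Col6a2 rose by 3.46 ± 0.50 (limma adjusted p = 3.3e-06), Col18a1 by 3.02 ± 0.54, Col1a1 by 2.76 ± 0.49 and Col3a1 by 2.63 ± 0.41. Col18a1 at 15 d was 12.23, 11.89, 9.24 and 12.45 in rats 40, 41, 42 and 43, against a highest value of 9.26 at 8 d. Rats 40, 41 and 43 lay well above all 8 d tumours and rat 42 among them. Without rat 40 15 collagens were called in this comparison. Col23a1 rose by 2.00 ± 0.31, Col5a3 by 1.43 ± 0.23, Col6a1 by 2.58 ± 0.43, Col5a2 by 2.07 ± 0.37 and Col6a3 by 2.66 ± 0.52. Col4a2 rose by 1.11 ± 0.25, while its neighbour Col4a1, at 0.18 ± 0.30, was not called. Col14a1 (0.43 ± 0.39) and Col12a1 (0.19 ± 0.14), low at 8 d, were not called either, and Col19a1 fell by 1.26 ± 0.48.

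The lists around collagen at 15 d against 8 d after MRT were higher for 16 and lower for 1 of 25 synthesis and crosslinking genes, with Lox, which crosslinks fibrils, at 2.80 ± 0.54. Basement membrane partners were higher in 9 of 16, among them the perlecan gene Hspg2 at 1.45 ± 0.26, interstitial partners higher in 7 and lower in 2 of 21, degradation genes higher in 2 of 16 and receptors called in 0 of 7. Among cell markers in the same arrays, mitosis genes were higher in 13 of 16, fibroblast and meningeal genes higher in 5 and lower in 3 of 13, and pericyte and smooth muscle genes higher in 4 and lower in 3 of 12. Endothelial genes were higher in 1 and lower in 4 of 13, astrocyte genes higher in 1 and lower in 3 of 9, macrophage genes lower in 4 of 11 and neuron genes lower in 3 of 19. Oligodendrocyte, T cell and choroid plexus genes had 0 called, and the part of these markers in the collagen rise was not tested.

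After BB the 15 d tumours were close to each other in some abundant collagens, unlike those of 8 d. Col18a1 was 11.70, 11.72, 12.25 and 12.26, and Col3a1 13.60, 13.61, 13.62 and 13.80. This did not hold for all members. The SD at 15 d was wider than at 8 d for Col14a1 (1.45 against 1.18) and Col15a1 (0.70 against 0.45). Of the 41, 1 was called between 15 d and 8 d, where 1.7% of all genes were, and it was Col23a1, at 1.45 ± 0.35. Its adjusted p reached 0.19 with only the groups compared in the fit. Without BB rat 57 at 8 d the count was 13, and it was 0 without rat 55, 56, 58, 59 or 61.

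At 15 d 2 collagens differed between MRT and BB tumours, where 3.05% of all genes did, and each lost its call when single rats were left out. Col4a2 was 8.48, 8.63, 8.68 and 8.98 after MRT and 7.22, 7.46, 7.52 and 8.03 after BB. The groups did not overlap, and MRT was higher by 1.13 ± 0.28 (limma adjusted p = 0.016). Without MRT rat 43 the adjusted p was 0.0696 and without BB rat 59 it was 0.0762. Col4a1, at 9.03 ± 0.35 (SD, n = 4) and 8.71 ± 0.45 (n = 4), was not called. Col14a1 was lower after MRT, by a difference of -1.67 ± 0.44 (adjusted p = 0.027), from 6.94 ± 1.45 after BB to 5.28 ± 0.31 after MRT. It was not called without MRT rat 41 or 42 or BB rat 58 or 60, with an adjusted p of up to 0.216.

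The abundant collagens tracked each other across the 59 tumour arrays, which share groups and array-wide scaling, whether or not their chains build 1 protein. Pearson's r was 0.97 for Col1a1 with Col1a2, 0.96 for Col6a1 with Col6a2 and 0.91 for Col8a1 with Col8a2 (Spearman's rho 0.94, 0.93 and 0.91). It was 0.97 for Col1a1 with Col3a1 and 0.95 for Col3a1 with Col5a2, whose chains lie in different proteins (rho 0.92 and 0.92). For Col4a1 with Col4a2, which share the promoter printed above, r was 0.72 in tumours (rho 0.75) and 0.76 over 56 contralateral arrays (rho 0.73). For Col4a5 with Col4a6 it was 0.28, and for Col6a5 with Col6a6 -0.15. The last of these involve dim probe sets, and the values are given as a description.

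In MRT-treated rats at 8 d fewer collagens were called between tumour and brain than in untreated rats, 23 of the 41 against 37. The untreated comparison pooled all its times, held more arrays and called 81.1% of all genes. Of the 23 after MRT, 8 were higher and 15 lower in tumour, where 62.7% of all genes were called, 32.3% higher and 30.3% lower. The median of the 41 was -0.15. The tumour excess of Col5a2 was 2.27 ± 0.34, of Col3a1 1.24 ± 0.37 and of Col6a3 1.38 ± 0.42, in place of 5.01, 4.70 and 5.23 in untreated rats of all times; the change between these was not tested. Col19a1 (-2.04 ± 0.34), Col6a5 (-0.73 ± 0.13) and Col9a1 (-0.90 ± 0.17) were lower in tumour.

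In the contralateral hemisphere MRT called few collagens at 6 h, 2 of the 41, where 8.22% of all genes were called. Col4a5, a chain of a less widespread type IV network, differed by -0.73 ± 0.15 (limma adjusted p = 0.00034), and Col12a1 by -0.41 ± 0.11 (adjusted p = 0.0085). Col12a1 was 6.69, 6.69, 6.75, 6.77 and 6.91 in untreated brain and between 6.04 and 6.64 after MRT, median 6.39. Its groups were apart, although on the mean of all Col12a1 probe sets it was not called (adjusted p = 0.177). In the same arrays endothelial markers were lower in 7 of 13, fibroblast and meningeal markers in 6 of 13 and pericyte markers in 5 of 12 with 1 higher. Macrophage markers were higher in 6 and lower in 1 of 11 and T cell markers higher in 5 of 10, and their part in the collagen values was not tested.

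At 48 h after MRT 12 collagens differed in the contralateral hemisphere, 2 higher and 10 lower, where 32.2% of all genes did, 13.2% higher and 19% lower, so that the share is near the background. Their median was -0.15, against -0.11 over all genes. Col11a2 fell from 8.15 ± 0.25 (SD, n = 4) to 7.25 ± 0.16 (n = 7), a difference of -0.90 ± 0.13 (limma adjusted p = 8.3e-07). Col27a1 was 6.66, 6.74, 6.75 and 7.20 untreated and between 6.02 and 6.38 after MRT, a difference of -0.59 ± 0.11. Both genes had groups that did not overlap, and they alone of the 12 kept their call under every alternative tried. Col13a1, a membrane collagen, was higher by 0.65 ± 0.18 and Col15a1 by 0.48 ± 0.18, and the other called members, Col26a1, Col20a1, Col4a6, Col9a2, Col2a1, Col10a1, Col4a4 and Col14a1, had differences from -0.66 to -0.27.

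The contralateral counts moved with single arrays. Without the 5 contralateral arrays of high mitosis means, 5 collagens were called at 48 h after MRT, and without untreated rat 18 alone 3 were. The contralateral array of rat 18 also had the highest median intensity of its 48 h group, 165 against 123, 124 and 125. The part of that median in the counts was not tested. Macrophage markers were higher in 9 of 11 at that time and astrocyte markers in 5 of 9, while mitosis markers were higher in 1 of 16. Endothelial markers were higher in 4 of 13, pericyte markers lower in 4 of 12, and fibroblast and meningeal markers lower in 3 and higher in 1 of 13, and their part in the collagen values was not tested. For Col6a3, the brightest probe set differed by 0.68 and its other one by -0.64, and among 14 collagens with several probe sets 5 had 1 of opposite sign.

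At 8 d after MRT 3 collagens differed in the contralateral hemisphere, where 7.91% of all genes did: Col6a2 (-1.21 ± 0.33), Col11a2 (-0.44 ± 0.13) and Col15a1 (0.56 ± 0.18). Without untreated rat 29 the count was 1. Col6a2 was 6.04, 6.43, 6.69 and 9.36 in untreated brain, with rat 30 at the top, and between 5.67 and 6.27 after MRT. The groups overlapped at their edge. Without the 5 contralateral arrays of high mitosis means, rat 30 among them, the difference was -0.47 (limma adjusted p = 0.162). Macrophage markers were higher in 8 of 11, and fibroblast and meningeal markers lower in 3 and higher in 1 of 13, and their part in the collagen values was not tested.

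After BB 5 contralateral collagens were called at 6 h (12.2% of the 41), 9 at 48 h (22%) and 2 at 8 d (4.88%). Of all genes 21.6%, 21.6% and 5.94% were called, so that the collagens' share was near or below the background. None of these collagen calls held under every alternative tried. At 6 h these were Col12a1 (-0.42 ± 0.12), Col16a1 (0.38 ± 0.12), Col11a2 (-0.39 ± 0.12), Col4a5 (-0.46 ± 0.16) and Col1a2 (-1.08 ± 0.38). At 48 h all 9 were lower, where 15.1% of all genes were lower and 6.46% higher. They were led by Col27a1 (-0.65 ± 0.14), Col11a2 (-0.73 ± 0.16) and Col5a3 (-1.09 ± 0.27). Col5a3 was 6.13, 6.21, 6.23 and 6.74 in untreated brain and 5.00, 5.25 and 5.46 after BB, with no overlap. At 8 d Col6a2 differed by -1.23 ± 0.36 and Col4a5 by 0.63 ± 0.19. At 6 h endothelial markers were lower in 7 of 13, fibroblast and meningeal markers in 5 of 13, neuron markers in 7 of 19 and pericyte markers in 5 of 12 with 1 higher, and macrophage markers were higher in 5 and lower in 1 of 11. At 48 h fibroblast and pericyte markers were lower in 3 of 13 and 3 of 12, and macrophage and astrocyte markers higher in 4 of 11 and 4 of 9. At 8 d choroid plexus markers were higher in 5 of 9 and macrophage markers in 3 of 11, and pericyte markers were lower in 3 and higher in 1 of 12. The part of these markers in the collagen values was not tested. The 6 h count was 3 without untreated rat 1 or 2 and 2 without rat 3, and the 48 h count was 3 without untreated rat 18 and 4 or 5 without any of the BB rats 50, 51 and 52. The 8 d count was 0 without BB rat 54 or untreated rat 30 and 1 without BB rat 55 or 56 or untreated rat 28. Without the 5 contralateral arrays of high mitosis means 4 were called at 48 h and 0 at 8 d, when Col6a2 was at -0.66 (limma adjusted p = 0.113).

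**Figure D5:**
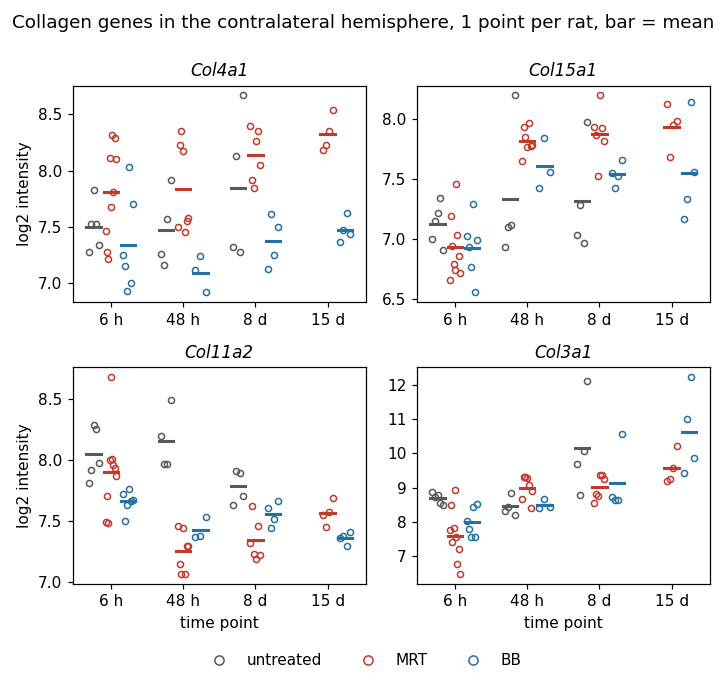
Log2 intensity of Col4a1, Col15a1, Col11a2 and Col3a1 in the contralateral hemisphere, by treatment and time; each point is 1 rat and the bar is the group mean. Col4a1 at 15 d lies higher after MRT, from 8.18 to 8.54, than after BB, from 7.37 to 7.62, and Col3a1 has single high rats, such as untreated rat 30 at 12.13.

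Contralateral Col4a1, the main vascular basement membrane chain, averaged 7.85 in untreated rats at 8 d. It was called neither after MRT nor after BB against untreated rats at 6 h, 48 h or 8 d. Between MRT and BB, compared there at 8 d and 15 d only, Col4a1 was called at both times. The 48 h means of 7.83 after MRT and 7.09 after BB were not tested against each other. At 8 d, when 1 of the 41 was called and 3.02% of all genes, Col4a1 was at 8.14 ± 0.23 (SD, n = 6) after MRT and 7.37 ± 0.22 (n = 4) after BB, a difference of 0.76 ± 0.22 (limma adjusted p = 0.044). The adjusted p was 0.249 without BB rat 54, 0.124 without rat 56 and 0.0687 without rat 57. At 15 d it was 8.18, 8.22, 8.35 and 8.54 after MRT and 7.37, 7.43, 7.48 and 7.62 after BB. The groups were apart, with a difference of 0.85 ± 0.25 (limma adjusted p = 0.027). The call was lost without MRT rat 41, 42 or 43 or BB rat 58 or 59, with an adjusted p of up to 0.0845. Without the 5 arrays of high mitosis means it was 0.0261 at 8 d and 0.0498 at 15 d. Its partner Col4a2 was 7.61, 7.99, 8.04 and 8.27 after MRT and 7.27, 7.30, 7.30 and 7.30 after BB, a difference of 0.68 ± 0.21 (limma adjusted p = 0.039). That call was lost without any 1 of the BB rats, without MRT rat 41, 42 or 43 and without the 5 arrays, with an adjusted p of up to 0.175.

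In all 5 collagens were called at 15 d, where 5.87% of all genes were. Besides the type IV pair they were Col5a1 (-1.11 ± 0.32), Col5a2 (-1.36 ± 0.43) and Col19a1 (-0.76 ± 0.23). BB rats 59 and 60 also had a high contralateral Col3a1, at 11.01 and 12.25, against 9.42 and 9.88 in the other BB rats. Without the 5 contralateral arrays of high mitosis means, Col5a1 was at -0.41 (limma adjusted p = 0.565) and 1 collagen was called at 15 d. The count was 0 without MRT rat 42 or BB rat 59, 1 without MRT rat 41 or BB rat 60 and 3 without MRT rat 40. In this comparison macrophage markers were higher after MRT in 5 and lower in 1 of 11, astrocyte markers higher in 4 of 9, mitosis markers lower in 4 of 16, fibroblast and meningeal markers higher in 2 and lower in 3 of 13, endothelial markers higher in 2 of 13 and pericyte markers called in 0 of 12. At 8 d macrophage markers were higher in 7 of 11, astrocyte markers in 2 of 9 and endothelial markers in 1 of 13. The part of these markers in the collagen values was not tested.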

How the data were processed

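The deposited series table holds, per the labels' protocols and its values, 1 normalized intensity per probe set and array, as whole numbers from 7 to 27837 on a linear scale; total RNA (200 ng) had been amplified with a 3' kit. Per the submitters' processing notes the authors used RMA in Affymetrix Expression Console for the 35 BB arrays, and RMA and MAS5 are named for the other 80; versions are not given in the sources used here. A log2 scale had been assumed in the planned design. As the deposited values are linear, log2 was taken here, and rounding then gives steps of 0.19 log2 at the lowest value.

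Of 31099 probe sets, 57 controls, 436 with several symbols and 9780 with none were left out, and the remaining 20826 gave 14217 genes. All 41 collagen genes matched RefSeq by gene ID, and 32 had a promoter sequence there.

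Group means were fitted in R 4.3.3 with limma 3.58.1 (lmFit, eBayes with a trend) within each tissue, or over both tissues where these were compared, for 24 comparisons, with Benjamini-Hochberg adjustment over all genes and calls at an adjusted p under 0.05. Rats were separate animals. Tumour and brain of the same rat were checked for pairing: of 55 rats, 38 had deviations from their group means that correlated above 0.1, with a median of 0.186. Any collagen could be named, and full statistics were given for at most 12 called members of largest statistic per comparison, for 3 where none was called, and for at most 3 called genes of each other list. The members and lists were chosen with earlier results of these data known. The alternatives were other normalizations, probe set rules, filters, covariates, sample sets, a rat block and the omission of single arrays.

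The fit was tested on simulated data. For MRT against untreated tumours at 8 d, of 50 genes changed at each size among 14217, 34% were called at 0.5 log2, 82% at 1, 98% at 2 and 100% at 3, and 7 of 164 calls were false.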

Additional observations from a re-analysis of the deposited data

Results flagged for a closer look

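Chance alone sets apart about 1 in 20 groups by the rule used for single arrays, and 63 groups of collagen class means were looked at. In MRT tumours at 6 h the mean of the fibrillar collagens was lowest in rat 6, at 7.85 on the log2 scale, against 8.64 in the next of the 9 rats and 9.26 at the other end. In untreated contralateral brain at 6 h it was highest in rat 2, at 6.90, against 6.82 in the next of the 5 rats, a small gap in a narrow group. In untreated contralateral brain at 48 h the basement membrane mean was highest in rat 18, at 7.74, against 7.05 in the next of the 4 rats. The mitosis mean of this array, at 6.69, and its median intensity, at 165, were also the highest of its group. Their part in the collagen value was not tested.

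The effect of MRT on tumour collagens differed between 48 h and 8 d for 24 of the 41 genes, by a test of the difference itself in limma's fit. The 22 of these that were more negative at 8 d included Col7a1, Col3a1, Col6a1, Col6a2 and Col18a1.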

How the results depend on the processing

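Counts of called collagens were recomputed under 309 alternative settings, and 97 of them moved by more than 1.5 times. Of 1975 values of named members, 1699 kept direction and call, 275 lost the call and 1 changed direction: Col19a1 in untreated tumours at 8 d against 6 h was at 0.28 with the neuron mean as covariate (adjusted p = 0.779). Named calls held under all alternatives for 12 of 12 members after MRT at 8 d, at 15 d against 8 d after MRT, in the change of the MRT effect and between untreated tumour and brain, for 11 of 12 between MRT tumour and brain at 8 d, for 7 of 12 after BB at 8 d, for 2 of 12 in contralateral brain at 48 h after MRT and for 1 of 2 there at 6 h; in no other comparison did a named call hold under all. With the rat as replicate block, which pairs the tissues, untreated tumour against brain gave 37 calls as before and the MRT rats at 8 d gave 25 in place of 23, and the block changed no named call.

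Quantile normalization gave 1 call for BB against untreated tumours at 48 h and 2 for BB tumours at 15 d against 8 d, and a shift to a common median gave 2 for the latter and 4 for contralateral brain at 6 h after MRT. The mean of all probe sets gave 1 for BB tumours at 6 h, 1 at 48 h and 4 for contralateral brain at 6 h after MRT. Without the dimmest 30% of genes, which leaves out 18 of the 41, tumours had 0 calls for BB at 48 h, 1, 4 and 1 for MRT against BB at 6 h, 8 d and 15 d, and 6 for untreated 8 d against 6 h; contralateral brain had 1 and 3 after MRT at 6 h and 48 h and 2 after BB at 48 h; tumour against brain had 22 untreated and 13 after MRT. With only the groups compared in the fit, tumours had 0, 1 and 11 for BB at 6 h, 48 h and 8 d, 0, 0 and 1 for MRT against BB at 6 h, 8 d and 15 d, 18 for untreated 8 d against 6 h and 0 for BB at 15 d against 8 d; contralateral brain had 4 and 2 after MRT at 6 h and 48 h, 11 and 0 after BB at 6 h and 48 h, and 2 for MRT against BB at 8 d. The neuron covariate gave tumours 18 calls for BB at 6 h, 6 for MRT against BB at 6 h, 0 for untreated 8 d against 6 h and 6 for BB at 15 d against 8 d. The cause of these moves was not tested.

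Some settings were added after seeing the data. Without tumours 37 and 38, MRT against BB at 8 d gave 1 call, and without tumours 6 and 47 it gave 1 at 6 h. Without the contralateral arrays of rats 18, 30, 57, 59 and 60, contralateral brain had 5 calls after MRT and 4 after BB at 48 h, 0 after BB at 8 d, and 2 and 1 for MRT against BB at 8 d and 15 d. With the mitosis mean as covariate it had 5 and 5 after MRT at 6 h and 8 d and 8 after BB at 6 h.

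Single arrays were left out of groups of 5 or fewer. In tumours the counts then ran from 25 to 28 for MRT at 8 d, 15 to 22 for MRT at 15 d against 8 d, 21 to 25 for the change of the MRT effect, 12 to 26 for BB at 8 d, 6 to 13 for untreated 8 d against 6 h, 0 to 3 for BB at 6 h, 0 to 1 for BB and for MRT at 48 h, 0 to 16 for MRT against BB at 8 d, 1 to 3 for it at 15 d and 0 to 13 for BB at 15 d against 8 d. In contralateral brain they ran from 3 to 15 after MRT at 48 h, 1 to 4 at 8 d, 2 to 5, 3 to 13 and 0 to 2 after BB at 6 h, 48 h and 8 d, and 0 to 1 and 0 to 5 for MRT against BB at 8 d and 15 d. Between untreated tumour and brain they ran from 34 to 39.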
